A study of Mus musculus with 6 samples.

Results

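The 34 genes described here act in DNA damage signalling and repair. They were chosen by symbol, without use of their measured values but with earlier results of these data known. They were matched by Ensembl identifier in a table of 55774 genes. All 34 symbols found a single row. Of these genes, 32 had an FPKM (fragments per kilobase of transcript and 1000000 fragments) of at least 1 in at least 3 libraries and entered the test, which covered 11924 genes. Neil3 and Ercc2 were below that limit. The set holds 5 checkpoint genes, 7 genes of homologous recombination and break-end processing, 4 genes of end joining, 3 of crosslink and post-replication repair, 2 of mismatch repair, 10 of base excision and single-strand break repair and 3 of nucleotide excision repair.

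RNA was sequenced from blastocysts that developed from wild-type 2-cell embryos, collected from the oviducts of ICR females and cultured in CZB medium with oviductal extracellular vesicles from women with endometriosis (oEV-EMT) or from women without it (oEV-ctrl). Each group has 3 libraries, and each library is a pool of 10 blastocysts. The sample labels name uterine fibroids for the donors of the control vesicles, whereas the paper names another gynaecological condition. No library of embryos cultured without vesicles was analysed here, so each difference is between embryos that all received human vesicles. The labels do not say whether the pools came from separate cultures or vesicle donors, and the p-values therefore measure only the spread between these pools, which may be technical.

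DNA lesions are met by 2 layers of proteins. Kinases such as ATM and ATR sense breaks and stalled forks and hold the cell cycle, while separate repair pathways remove the lesion. Homologous recombination copies a break from the sister chromatid, end joining ligates it directly, and the excision pathways cut out a damaged base, a bulky adduct or a mispaired stretch. Cleavage embryos begin with repair transcripts and proteins stored in the oocyte.

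The number of fragments per library, estimated from the spacing of the lowest FPKM values, was 36.8, 21.5 and 25.2 times 1000000 for oEV-EMT and 17.8, 24.4 and 32.4 times 1000000 for oEV-ctrl. Between 32.0% and 40.6% of the low values lay within 0.05 of a whole number of half-steps, a half-step being the value of a single read of a fragment's pair, so these totals are estimates. A single unannotated gene took 31.5% of the summed FPKM in oEV-ctrl 1 and 15.3% to 21.3% in the other 5 libraries. At this depth a value of the 34 genes rested on about 26 fragments, in Ercc2, to about 4430, and no counting interval was computed from them. Over the tested genes as a whole the median log2 fold change was 0.17 toward oEV-EMT, which became 0.01 after median-of-ratios scaling. Changes are therefore also given relative to this median. In pooled blastocysts, fewer cells of a type and less RNA per cell cannot be told apart.

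None of the 32 tested repair genes passed both thresholds of the study, which ask for an adjusted p-value no higher than 0.05 and a log2 fold change of 1 or more in either direction (limma with Benjamini-Hochberg adjustment over all tested genes). The same count over all tested genes was 0, or 0%, and the smallest adjusted p-value among the repair genes was 0.174, for Chek2. At an unadjusted p of 0.05 or less, 4 repair genes were higher in oEV-EMT, namely Chek2, Pms2, Parp2 and Ung, and 0 were lower. Among all tested genes 12.8% were higher and 2.55% lower by this rule, so the 4 of 32 were close to the background. The number fell to 1 without library oEV-ctrl 1 and to 2 without oEV-ctrl 2, and it was 6 without oEV-EMT 3 or without oEV-ctrl 3. Chek2 was among them each time. The background moved too. Of all 11924 tested genes, 1527 were higher with all libraries, 940 without oEV-ctrl 1 and 972 without oEV-ctrl 2. It was 1662 without oEV-EMT 3 and 1485 without oEV-ctrl 3. After median-of-ratios scaling, 2 repair genes were higher, Chek2 and Pms2, and Parp1 was lower, against a background of 6.36% higher and 6.44% lower.

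In 6 of the 32 genes every oEV-EMT value was higher than every oEV-ctrl value, namely Chek2, Xrcc5, Rad18, Pms2, Parp2 and Ercc1, where 18.1% of all tested genes did so. The opposite order was found in 0 of them, against 4.34% of all tested genes. After median-of-ratios scaling, 4 genes lay above (Chek2, Pms2, Parp2 and Ercc1) and 3 below (Topbp1, Parp1 and Xpc), against 9.85% and 10.3% of all tested genes. The median log2 fold change of the 32 genes was 0.29, or 0.12 above the median of all tested genes, with 18 genes above that median and 14 below it, where 50% of all tested genes are above it by construction. Without this centring, the log2 fold change was above 0 in 25 of the 32 genes and in 70.1% of all tested genes. The median deviation of the repair genes from their own means was 0.05, 0.03 and -0.05 for oEV-EMT and -0.06, -0.13 and 0.08 for oEV-ctrl, each relative to the median of all tested genes in that library. Library oEV-ctrl 3 was thus the highest of the 6, and the groups overlapped.

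**Figure D1:**
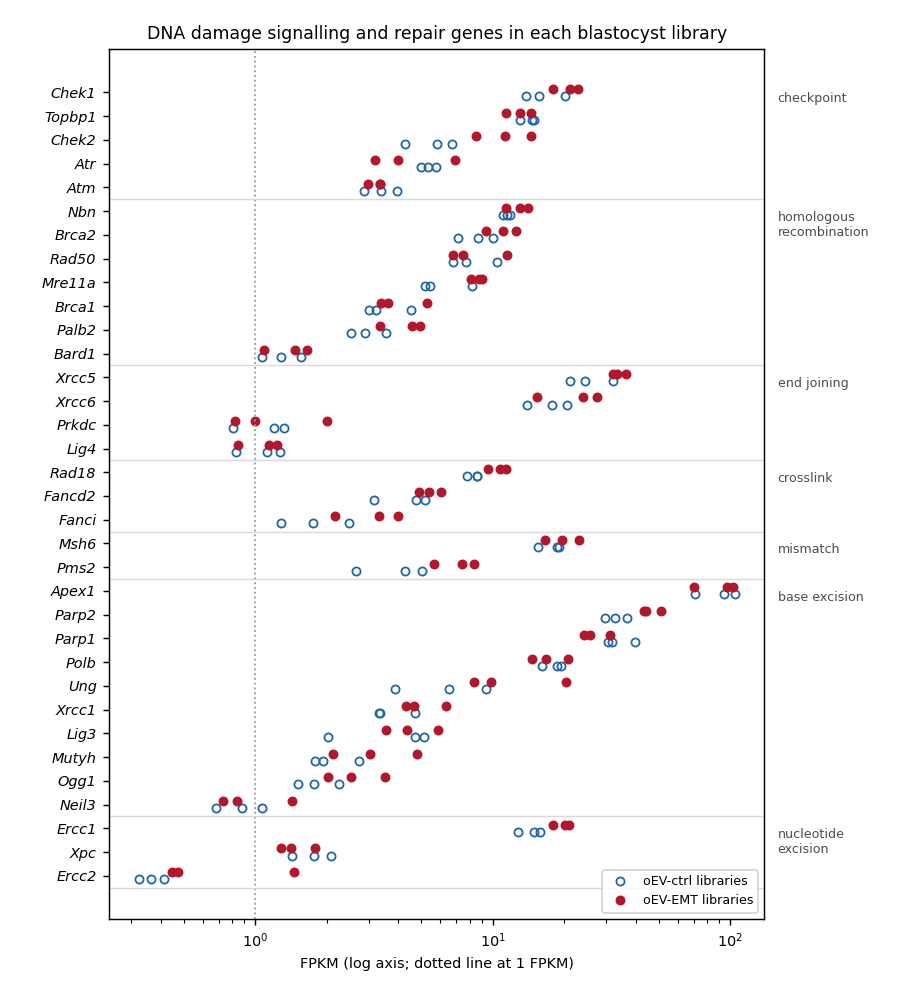
FPKM of the 34 repair genes in each library on a log axis, grouped by pathway, with filled points for the 3 oEV-EMT libraries and open points for the 3 oEV-ctrl libraries. Chek2, Xrcc5, Rad18, Pms2, Parp2, Ercc1 and the untested Ercc2 have all filled points to the right of the open ones, while the other rows are mixed.

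Many repair genes are transcribed at the entry into S phase through E2F factors, whose binding core was searched here on both strands of the promoters by 4 motifs, the first being TTGGCGC, the second reading TTCCCGC, the third reading TTCGCGC and the last being TTGCCGC. These motifs can overlap each other, and a gene with several matches was counted once. RefSeq windows from 250 bases before to 50 bases after the start, on GRCm38.p6, were found for 28 of the 34 genes. An E2F core was present in 15 of the 28, or 53.6%, against 20.5% of 7911 tested genes and 10.9% of all 27025 genes with a window. The CHR element TTTGAA, bound by complexes that repress cell cycle genes outside G2 and mitosis, was present in 1 of the 28, Bard1, or 3.57%, against 14.6% of tested genes and 20.2% of all genes with a window. The median GC content of the windows was 59.2% in the repair genes and 60.7% in the tested genes. A match is a string of letters and not a bound site.

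The promoters of the checkpoint kinase gene Chek2 and the mismatch repair gene Pms2 are shown since these had the lowest unadjusted p-values of the set, and those of Parp1 and Parp2 since the ratio of this pair did not overlap between groups. Each line gives 300 bases from 5′ to 3′ on the strand of the gene, and capitals mark an E2F core read on either strand. All of them are on the plus strand of GRCm38.p6, Chek2 at chr5:110839733-110840032, Pms2 at chr5:143909751-143910050, Parp2 at chr14:50807666-50807965 and Parp1 at chr1:180568641-180568940.
Chek2: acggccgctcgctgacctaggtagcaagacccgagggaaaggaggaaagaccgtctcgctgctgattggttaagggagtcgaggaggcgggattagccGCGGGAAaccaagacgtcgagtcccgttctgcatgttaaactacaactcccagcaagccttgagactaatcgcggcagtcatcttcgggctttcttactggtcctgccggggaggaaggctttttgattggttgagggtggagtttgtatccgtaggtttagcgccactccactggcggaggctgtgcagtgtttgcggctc
Pms2: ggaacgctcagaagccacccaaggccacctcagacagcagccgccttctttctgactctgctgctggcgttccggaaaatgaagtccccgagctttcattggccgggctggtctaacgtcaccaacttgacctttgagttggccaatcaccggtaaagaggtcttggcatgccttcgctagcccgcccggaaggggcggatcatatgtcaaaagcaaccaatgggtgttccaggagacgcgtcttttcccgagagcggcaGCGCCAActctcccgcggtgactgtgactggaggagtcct
Parp2: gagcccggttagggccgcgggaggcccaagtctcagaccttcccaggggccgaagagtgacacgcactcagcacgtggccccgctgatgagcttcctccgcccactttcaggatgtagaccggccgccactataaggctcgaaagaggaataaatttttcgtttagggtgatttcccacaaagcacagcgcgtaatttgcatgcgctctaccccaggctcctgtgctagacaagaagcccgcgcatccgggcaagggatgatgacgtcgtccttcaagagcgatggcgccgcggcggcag
Parp1: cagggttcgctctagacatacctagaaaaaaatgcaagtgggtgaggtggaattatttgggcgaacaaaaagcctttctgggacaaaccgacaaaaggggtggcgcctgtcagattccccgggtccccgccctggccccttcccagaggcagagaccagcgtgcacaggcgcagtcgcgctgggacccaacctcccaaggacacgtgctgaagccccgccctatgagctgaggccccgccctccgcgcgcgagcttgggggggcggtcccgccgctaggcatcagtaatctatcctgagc

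In the Chek2 window the core begins 152 bases before the start, and in the Pms2 window it begins 10 bases after it, both times as the reverse complement. The windows of Parp2 and Parp1 hold no match, which says only that these letters are not in these 300 bases. The 14 tested genes with a core changed by a median of 0.06 (log2) against all tested genes, with 7 of them above the median of all. The 12 tested genes with a window but no core had a median of 0.21, with 10 above it. Chek2 and Pms2, with a core, and Parp2 and Ung, without one, were the 4 genes higher at an unadjusted p of 0.05 or less, so these genes were found on both sides of the split.

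**Figure D2:**
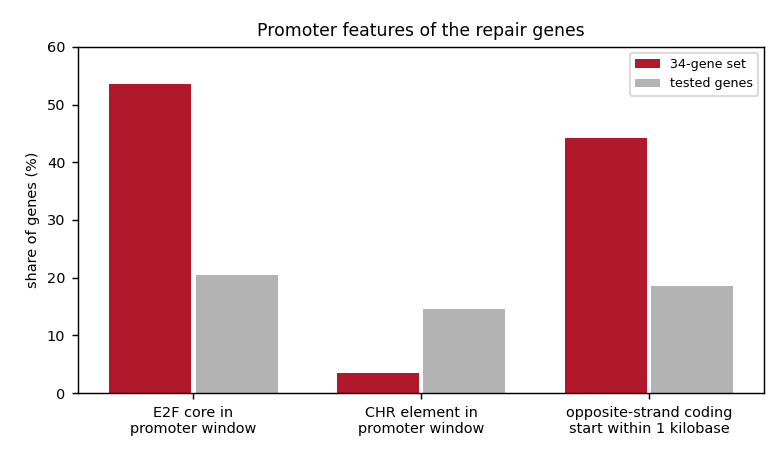
Share in percent of genes whose promoter window holds an E2F core or a CHR element (28 repair genes and 7911 tested genes with a window), and of genes whose start lies within 1000 bases of a protein-coding start on the opposite strand (34 repair genes and 9595 tested protein-coding genes). Red bars show the repair genes and grey bars the tested genes, with 53.6% against 20.5%, 3.57% against 14.6% and 44.1% against 18.6%.

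Among the checkpoint genes, Chek2 was higher in all oEV-EMT libraries, while the other 4 overlapped between groups. Chek2 (ENSMUSG00000029521) lies at chr5:110839979-110874145 on the plus strand, as annotated by GENCODE M21 on GRCm38, which also gives the positions of the other genes. It encodes CHK2, the kinase that ATM activates at double-strand breaks and that phosphorylates p53. Its FPKM values were 14.5, 11.2 and 8.47 with oEV-EMT and 4.26, 5.85 and 6.73 with oEV-ctrl. Every oEV-EMT value was above every oEV-ctrl value, and library oEV-EMT 1 was the highest. The means were 11.4 ± 3.04 and 5.61 ± 1.25 FPKM (SD, n = 3 each), and the log2 fold change was 0.90 ± 0.26 (SE; 95% interval 0.32 to 1.47), or 0.73 relative to all genes. The adjusted p-value was 0.174 (limma), which does not pass the threshold. Leaving out each library in turn gave log2 fold changes between 0.72, without oEV-EMT 1, and 1.08, without oEV-EMT 3.

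Chek1 encodes CHK1, the kinase downstream of ATR, and was the highest checkpoint gene. Its FPKM values were 22.8, 21.1 and 17.9 in oEV-EMT and 15.6, 13.8 and 20.1 in oEV-ctrl. The groups overlapped through oEV-EMT 3 and oEV-ctrl 3, and the log2 fold change was 0.31, of which 0.14 lay beyond the median of all genes. Atm, the apical kinase at double-strand breaks, was the lowest, with 2.98, 3.35 and 3.36 FPKM in oEV-EMT and 2.86, 3.38 and 3.94 in oEV-ctrl. Atr, which responds to exposed single-stranded DNA, was 6.95, 3.19 and 4.01 in oEV-EMT and 5.0, 5.79 and 5.35 in oEV-ctrl. Its spread in oEV-EMT was wide, since library oEV-EMT 1 was the highest and the other 2 were the lowest of all 6. Topbp1, whose product activates ATR, lay between 11.4 and 14.5 FPKM in oEV-EMT and between 13 and 14.9 in oEV-ctrl. Relative to all genes the log2 fold changes were -0.22 for Atm, -0.38 for Atr and -0.30 for Topbp1. Chek1 and Chek2 thus lay above the median of all genes and the other 3 below it, and the median of the 5 genes was -0.22.

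The 7 genes of homologous recombination and break-end processing overlapped between groups in every case. Their log2 fold changes relative to all genes ran from -0.15 for Rad50 to 0.26 for Mre11a, with a median of -0.02, and 3 of the 7 were above the median of all genes. Nbn, the NBS1 subunit of the MRE11 complex that recruits ATM, was the highest, with 14.1, 13 and 11.4 FPKM in oEV-EMT and 11.1, 11.8 and 11.4 in oEV-ctrl. Its partner Mre11a, the nuclease of the complex, had 8.99, 8.73 and 8.11 FPKM in oEV-EMT and 5.43, 5.18 and 8.15 in oEV-ctrl. For Mre11a the overlap came from oEV-ctrl 3 alone, which was just above the lowest oEV-EMT library.

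Rad50, the ATPase of the same complex, had 6.77, 11.4 and 7.47 FPKM against 10.5, 6.77 and 7.73, with a high library in each group. Brca2, a mediator of homologous recombination, had 11.0, 12.6 and 9.33 FPKM in oEV-EMT and 7.15, 8.68 and 10.1 in oEV-ctrl. Palb2, which links BRCA1 to BRCA2, had 4.94, 3.34 and 4.57 FPKM against 2.89, 3.54 and 2.52, with a log2 fold change of 0.40. Brca1 had 5.31, 3.63 and 3.37 FPKM against 3.01, 3.23 and 4.53. Bard1, the partner of BRCA1 in its ubiquitin ligase, was the lowest of the 7, with 1.65, 1.09 and 1.47 FPKM in oEV-EMT and 1.55, 1.06 and 1.28 in oEV-ctrl. None of the 7 genes passed the threshold, with adjusted p-values (limma) between 0.397 and 0.972.

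Of the end joining genes, Xrcc5 did not overlap between groups and the other 3 did. Xrcc5 (ENSMUSG00000026187) lies at chr1:72307421-72394952 on the plus strand. It encodes KU80, which with KU70, the product of Xrcc6, forms the ring that binds broken ends. Xrcc5 had 36.4, 32.1 and 33.3 FPKM in oEV-EMT and 21.1, 24.4 and 32.0 in oEV-ctrl. The lowest oEV-EMT library and oEV-ctrl 3 were almost level. Its log2 fold change was 0.40 ± 0.22 (SE), or 0.23 relative to all genes, with an adjusted p-value of 0.405 (limma). Xrcc6 had 23.9, 27.6 and 15.4 FPKM in oEV-EMT and 17.7, 13.9 and 20.5 in oEV-ctrl, so that library oEV-EMT 3 lay within the oEV-ctrl range. Part of Xrcc6, 6.29% of its stretches of 50 bases, is shared with the overlapping gene Desi1 on the opposite strand.

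The 2 Ku genes were expressed at levels more than 10 FPKM above those of Prkdc and Lig4, the kinase subunit that Ku recruits and the ligase that seals the break. Prkdc had 1.99, 0.82 and 0.99 FPKM in oEV-EMT and 0.81, 1.19 and 1.32 in oEV-ctrl. Lig4, the lowest gene of the group, had 1.14, 0.84 and 1.24 FPKM against 1.27, 0.83 and 1.12. Their log2 fold changes relative to all genes were -0.09 and -0.17.

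All 3 genes of crosslink and post-replication repair were above the median of all genes, by 0.13 for Rad18, 0.11 for Fancd2 and 0.37 for Fanci. Rad18 (ENSMUSG00000030254) lies at chr6:112619850-112696686 on the minus strand. It encodes the ubiquitin ligase that marks PCNA at blocked forks. It had 9.50, 10.7 and 11.4 FPKM in oEV-EMT and 7.81, 8.60 and 8.57 in oEV-ctrl, with no overlap between groups. The log2 fold change was 0.30 ± 0.20 (SE), and the adjusted p-value was 0.502 (limma). Rad18 lost its order between groups after median-of-ratios scaling, as did Xrcc5.

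Fancd2 and Fanci encode the 2 proteins that are ubiquitinated together at crosslinks. Fancd2 had 4.90, 5.40 and 6.03 FPKM in oEV-EMT and 3.17, 4.75 and 5.18 in oEV-ctrl. Fanci, the lowest of the 3 genes, had 3.31, 3.97 and 2.16 FPKM against 1.28, 1.74 and 2.48. For both genes oEV-ctrl 3 reached into the oEV-EMT range. The adjusted p-value for Fanci was 0.342 (limma), and 12.4% of its stretches of 50 bases are shared with the overlapping gene Polg.

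In mismatch repair, Pms2 was higher in all oEV-EMT libraries and Msh6 was not. Pms2 (ENSMUSG00000079109) lies at chr5:143909964-143933968 on the plus strand. It encodes an endonuclease subunit of mismatch repair. Its FPKM values were 8.30, 5.66 and 7.39 in oEV-EMT and 2.64, 4.25 and 5.06 in oEV-ctrl. The groups did not overlap, and the gap between oEV-EMT 2 and oEV-ctrl 3 was smaller than the range within either group. The means were 7.12 ± 1.34 and 3.98 ± 1.23 FPKM (SD, n = 3 each), and the log2 fold change was 0.72 ± 0.26 (SE; 95% interval 0.15 to 1.3), which is 0.55 when set against all genes. The adjusted p-value was 0.240 (limma), and the log2 fold change lay between 0.51, without oEV-ctrl 1, and 0.88, without oEV-ctrl 3. Msh6, which takes part in the recognition of mismatches, had 23.0, 19.6 and 16.5 FPKM in oEV-EMT and 19.1, 15.5 and 18.7 in oEV-ctrl, and its log2 change against all genes was -0.03.

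Base excision and single-strand break repair is the largest group, and its genes lay on both sides of the median of all genes. Relative to all genes, 6 of its 9 tested genes were above the median and 3 below, from -0.50 for Parp1 to 0.66 for Ung. Parp2 (ENSMUSG00000036023) lies at chr14:50807841-50821301 on the plus strand. It encodes the smaller of the nuclear poly(ADP-ribose) polymerases that answer to strand breaks. It had 44.0, 51.1 and 43.4 FPKM in oEV-EMT and 29.7, 32.6 and 36.7 in oEV-ctrl. The groups did not overlap, and the mean was 46.1 ± 4.30 against 33.0 ± 3.55 FPKM (SD, n = 3 each). The log2 fold change was 0.47 ± 0.20 (SE; 95% interval 0.03 to 0.91), with an adjusted p-value of 0.295 (limma).

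Parp1 (ENSMUSG00000026496) lies at chr1:180568924-180601254 on the plus strand. As the gene of the main poly(ADP-ribose) polymerase, it had 31.1, 25.5 and 24.1 FPKM in oEV-EMT and 39.7, 30.4 and 31.9 in oEV-ctrl. The groups overlapped only through oEV-EMT 1, which was above oEV-ctrl 2. The means were 26.9 ± 3.67 and 34 ± 4.98 FPKM (SD, n = 3 each), with a log2 fold change of -0.32 ± 0.21 (SE) and an adjusted p-value of 0.488 (limma). Its value relative to all genes, -0.50, was the lowest of the 32 tested repair genes.

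Ung (ENSMUSG00000029591) lies at chr5:114130386-114139323 on the plus strand. It encodes the uracil-DNA glycosylase, and its difference rested partly on a single library. It had 20.3, 9.86 and 8.32 FPKM in oEV-EMT and 6.52, 3.88 and 9.33 in oEV-ctrl, so that oEV-ctrl 3 lay above oEV-EMT 3. The log2 fold change was 0.84 ± 0.36 (SE; 95% interval 0.02 to 1.65), with an adjusted p-value of 0.312 (limma), and it was 0.47 without library oEV-EMT 1 and 0.55 without oEV-ctrl 2. The other glycosylases overlapped between groups. Mutyh, which removes adenine opposite 8-oxoguanine, lay between 2.11 and 4.82 FPKM in oEV-EMT and between 1.79 and 2.72 in oEV-ctrl. Ogg1, which removes 8-oxoguanine itself, lay between 2.02 and 3.51 FPKM in oEV-EMT and between 1.51 and 2.24 in oEV-ctrl. Of its stretches of 50 bases, 5.92% are shared with the overlapping gene Camk1 on the opposite strand. Camk1 had means of 55.0 FPKM in oEV-EMT and 36.9 in oEV-ctrl, and its part in the Ogg1 values was not tested. Neil3, not tested, had 0.73, 1.43 and 0.83 FPKM against 0.88, 0.69 and 1.07.

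Apex1, the endonuclease that cuts the strand at the abasic site, was the highest repair gene, with 97.3, 103.1 and 70.5 FPKM in oEV-EMT and 104.3, 71.1 and 94.5 in oEV-ctrl. Its log2 fold change was 0.00, and 51.7% of its stretches of 50 bases are shared with the overlapping gene Pip4p1 on the opposite strand, so its level is uncertain. Polb, the gap-filling polymerase, lay between 14.6 and 20.8 FPKM in oEV-EMT and between 16.2 and 19.4 in oEV-ctrl. Xrcc1, the scaffold of single-strand break repair, lay between 4.30 and 6.38 FPKM against 3.31 to 4.70. Its ligase Lig3 lay between 3.55 and 5.87 FPKM against 2.03 to 5.11, and 23.8% of its stretches are shared with the neighbouring gene Rffl.

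In nucleotide excision repair, Ercc1 was higher in all oEV-EMT libraries, Xpc overlapped and Ercc2 was too low to be tested. Ercc1 (ENSMUSG00000003549) lies at chr7:19344778-19356524 on the plus strand. It encodes the partner of the XPF nuclease. It had 20.9, 20.1 and 18.0 FPKM in oEV-EMT and 15.8, 12.8 and 15 in oEV-ctrl, with no overlap. The means were 19.7 ± 1.51 and 14.5 ± 1.55 FPKM (SD, n = 3 each), with a log2 fold change of 0.41 ± 0.20 (SE) and an adjusted p-value of 0.366 (limma). Xpc, which finds distorted helices, had 1.78, 1.42 and 1.28 FPKM in oEV-EMT and 2.08, 1.43 and 1.77 in oEV-ctrl. Ercc2, a helicase of TFIIH, had 1.46, 0.45 and 0.47 FPKM against 0.41, 0.32 and 0.36. Library oEV-EMT 1 stood apart from the other 5 for Ercc2, of which 29.1% of the stretches are shared with other genes.

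**Figure D3:**
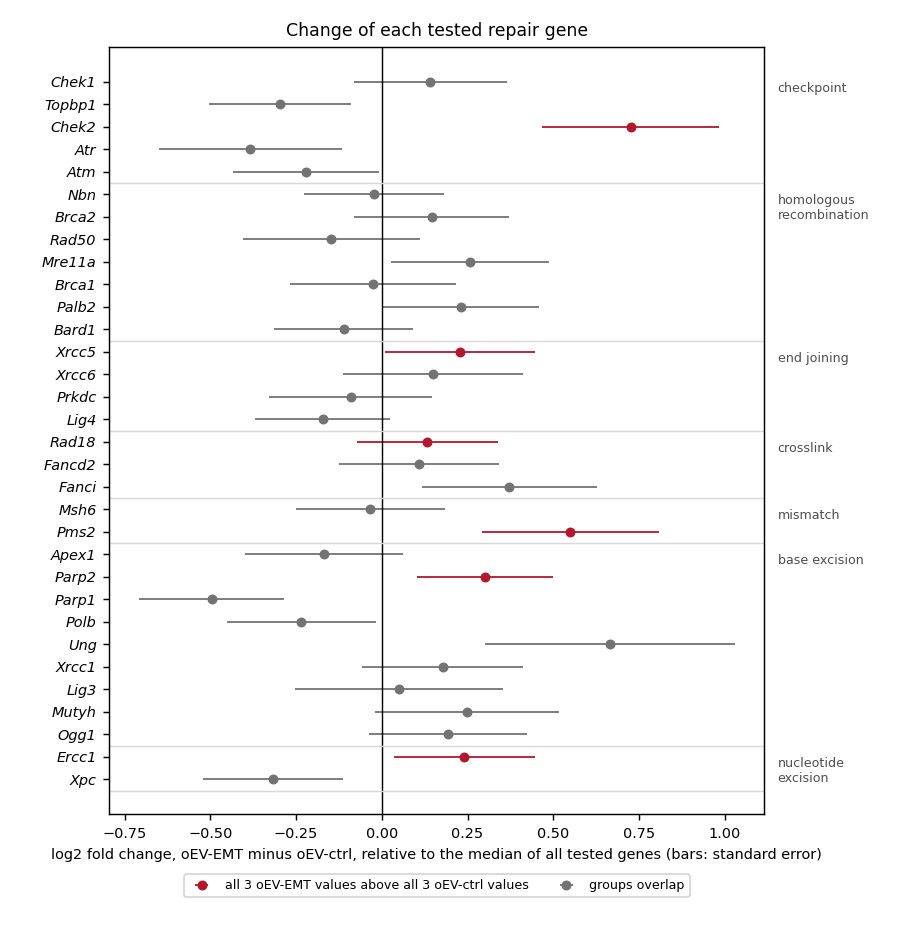
Log2 fold change (oEV-EMT minus oEV-ctrl) of the 32 tested repair genes relative to the median of all tested genes, with the standard error as bars, grouped by pathway. Red marks the 6 genes whose oEV-EMT values were all higher than their oEV-ctrl values, and Chek2 at 0.73 is the farthest to the right while Parp1 at -0.50 is the farthest to the left.

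Side by side, the median log2 fold changes relative to all genes were -0.22 for the 5 checkpoint genes, -0.02 for homologous recombination, 0.03 for end joining, 0.13 for crosslink repair, 0.26 for the 2 mismatch repair genes, 0.18 for base excision repair and -0.04 for the 2 tested nucleotide excision repair genes. Each group but crosslink repair held genes on both sides of the median of all genes. Genes higher at an unadjusted p of 0.05 or less were in the checkpoint (1), mismatch (1) and base excision (2) groups. With 2 to 9 genes in a group these medians are descriptions, and differences between the groups were not tested.

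The ratio of functional partners within a library does not depend on the scaling between libraries. Of 10 ratios examined, Parp1 to Parp2 and Chek1 to Chek2 did not overlap between groups. The Parp1 to Parp2 ratio was 0.707, 0.50 and 0.557 in oEV-EMT and 1.34, 0.934 and 0.868 in oEV-ctrl. Parp2 thus exceeded Parp1 in every oEV-EMT library by a larger factor than in any oEV-ctrl library. The means were 0.588 ± 0.107 and 1.05 ± 0.254 (SD, n = 3 each; exact permutation test, two-sided, p = 0.1, which is the lowest value possible for 3 against 3). The Chek1 to Chek2 ratio was 1.57, 1.88 and 2.12 in oEV-EMT and 3.67, 2.36 and 2.99 in oEV-ctrl. Its means were 1.86 ± 0.274 and 3.01 ± 0.653 (SD, n = 3 each; exact permutation test, p = 0.1). Adjusted over the 10 ratios, both had a p-value of 0.5 (exact permutation test), and the design cannot pass 0.05. The share of other gene pairs without overlap was not computed. In both pairs the first gene has the longer annotated transcript, 3873 against 2173 bases for Parp1 and Parp2 and 3797 against 2276 for Chek1 and Chek2. The part of transcript length in these ratios was not tested.

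The other 8 ratios overlapped, with p-values between 0.2 and 1 (exact permutation test). The Xrcc5 to Xrcc6 ratio, between the 2 Ku subunits, lay between 1.16 and 2.17 in oEV-EMT and between 1.19 and 1.76 in oEV-ctrl. The Atm to Atr ratio lay between 0.429 and 1.05 in oEV-EMT and between 0.572 and 0.737 in oEV-ctrl. Both ends of the Atm to Atr range came from oEV-EMT libraries.

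**Figure D4:**
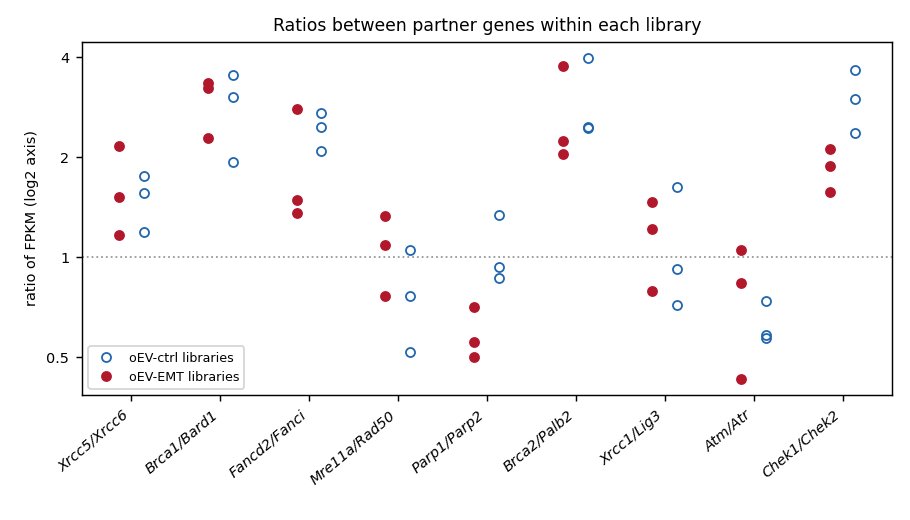
Ratio of the FPKM of 2 partner genes within each library on a log2 axis, with filled points for oEV-EMT and open points for oEV-ctrl. The filled points lie below the open ones for Parp1/Parp2 (0.50 to 0.707 against 0.868 to 1.34) and Chek1/Chek2 (1.57 to 2.12 against 2.36 to 3.67), and are mixed for the other 7 pairs drawn.

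On the FPKM scale, which is per length, the levels of the repair genes ran from 0.579 for Ercc2 to 90.1 for Apex1 as means over the 6 libraries. Parp2 followed at 39.6, Parp1 at 30.5 and Xrcc5 at 29.9. The order of Parp1 and Xrcc5 did not exceed their spread, and Parp1 and Parp2 overlapped in the oEV-ctrl libraries. The lowest tested gene was Lig4 at 1.07. The median level was 6.49 FPKM over the 34 genes and 7.74 over all tested genes, and among the groups it ran from 1.63 for nucleotide excision repair to 12.1 for mismatch repair.

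Long transcripts among the repair genes tended to have lower fold changes. Across the 32 genes, the rank correlation between the longest annotated transcript and the log2 fold change was -0.367, and it was -0.316 over 138 tested genes of this set and a wider repair list. It was -0.253 over 9595 tested protein-coding genes and -0.110 over 11631 tested genes with a length. These are correlations across genes that share the same 6 libraries, given as descriptions. The 13 repair genes with a transcript over 5000 bases had a median of -0.09 relative to all genes, with 5 above the median of all, and the 19 shorter ones had 0.18, with 13 above. Over all tested genes the share above the median was 29.8% for the 1796 longer genes and 52.7% for the 9835 shorter ones. Atm, Atr and Topbp1 are among the long genes, and Chek2, Parp2 and Ung among the short ones, while Pms2 is long. The part of transcript length in the differences between the repair genes was not tested.

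**Figure D5:**
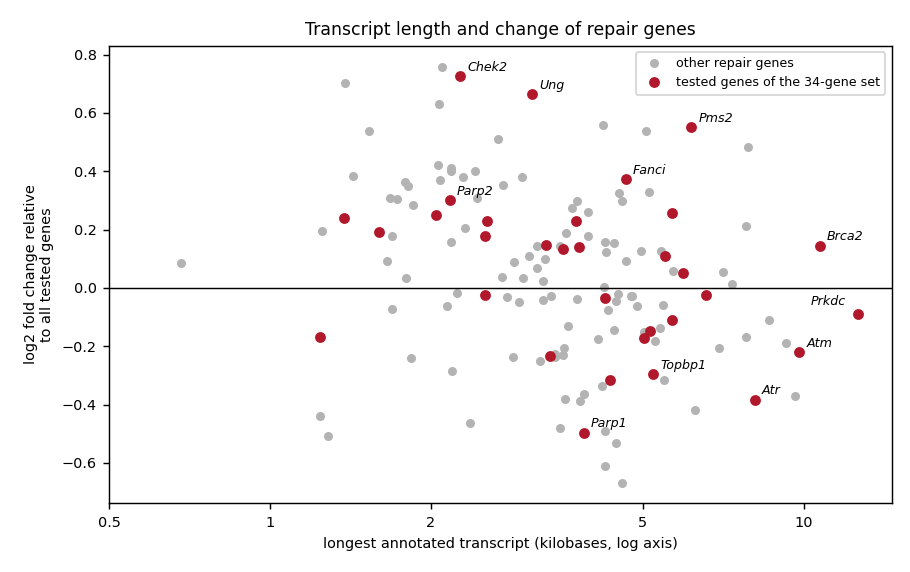
Log2 fold change relative to all tested genes against the length of the longest annotated transcript in kilobases (log axis), with red points for the 32 tested genes of the set and grey points for the wider repair list. Most points beyond 5 kilobases lie near or below 0, with Pms2 among the exceptions at 0.55.

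A protein-coding start on the opposite strand lay within 1000 bases in 15 of the 34 repair genes, or 44.1%, against 18.6% of 9595 tested protein-coding genes. Chek2 starts 202 bases from Hscb, a mitochondrial co-chaperone gene, which changed by 0.16 (log2) against all genes. Pms2 starts 117 bases from Aimp2, a scaffold gene of the aminoacyl-tRNA synthetase complex, with 0.42. Parp2 starts 109 bases from Ccnb1ip1, with -0.02. The start of Fancd2, named here after its values were seen, is 30 bases from that of Emc3, with 0.54 against 0.11 for Fancd2 itself. Whether the kit and the quantification kept the strand is not given in the sources used here, and reads of overlapping genes on opposite strands cannot be told apart without it.

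A wider list of 115 further repair genes, of which 106 were tested, gave a median of 0.04 relative to all genes, with 58 above the median and 48 below. At an unadjusted p of 0.05 or less, 15 of the 106 were higher and 0 lower, beside the 12.8% and 2.55% of all tested genes. The groups did not overlap in 23 genes, with oEV-EMT above in 22 and below in 1, where 18.1% and 4.34% of all tested genes did so, and after median-of-ratios scaling in 15 and 8, where 9.85% and 10.3% did. By pathway the 15 genes fell into homologous recombination (5 of 30), nucleotide excision (4 of 17), checkpoint (3 of 16) and crosslink repair (3 of 20), with 0 in end joining, mismatch and base excision repair. None of the 106 passed the adjusted threshold, with adjusted p-values (limma) of 0.164 and above.

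The genes of the wider list that stood farthest above the median without overlap were Rad9a and H2afx. Rad9a, part of the clamp that recruits TOPBP1 and ATR, had 12.7, 8.62 and 8.15 FPKM in oEV-EMT and 3.6, 4.60 and 5.77 in oEV-ctrl, and it changed by 0.76 (log2) against all genes. H2afx, the histone phosphorylated around breaks, had 50.1, 49.6 and 44.4 FPKM against 30.9, 18.3 and 29.9, with 0.70. The adjusted p-value was 0.164 for both of them (limma).

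Atrip, the partner through which ATR reaches single-stranded DNA, was the single gene of the wider list below in all oEV-EMT libraries. It had 3.69, 3.52 and 2.18 FPKM in oEV-EMT and 5.04, 4.43 and 4.11 in oEV-ctrl, with -0.61 (log2) against all genes and an adjusted p-value of 0.394 (limma). The other 2 clamp genes, looked up after the values were seen, were also above without overlap, as were 18.1% of all tested genes. Rad1 had 10.2, 12.7 and 14.8 FPKM against 7.92, 5.58 and 8.05, and Hus1 had 6.18, 5.92 and 8.41 against 5.58, 5.87 and 4.96. Relative to all genes their log2 fold changes were 0.56 and 0.09. For Hus1 the groups were almost level, at 5.92 FPKM in oEV-EMT 2 against 5.87 in oEV-ctrl 2.

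The p53 pathway, downstream of CHK2, was looked at beside these genes. Of 15 genes of p53 and its damage-induced targets, 13 were tested, with a median of 0.03 relative to all genes. Trp53, Bax and Phlda3 lay above without overlap and at an unadjusted p of 0.05 or less, or 3 of 13, beside the 18.1% and 12.8% of all tested genes. Cdkn1a, the cell cycle inhibitor, had 47.4, 35.2 and 25.1 FPKM in oEV-EMT and 26.6, 16 and 32.0 in oEV-ctrl. Mdm2, the negative regulator of p53, had 35.1, 18.3 and 13.4 FPKM against 21.1, 16.3 and 22.3, and both genes overlapped between groups.

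Markers of the blastocyst lineages were present in every library. The summed FPKM of 8 epiblast markers lay between 141 and 177 in oEV-EMT and between 69.6 and 121 in oEV-ctrl, with 4 of the 8, Nanog, Pou5f1, Fgf4 and Gdf3, above without overlap, beside the 18.1% of all tested genes. Sox2, Esrrb and Klf2 lay below the median of all genes, by log2 values of -0.49, -0.23 and -0.10, so the list went both ways. The sums of 8 trophectoderm markers (3136 to 4746 against 3082 to 4836) and of 7 primitive endoderm markers (136 to 265 against 182 to 240) overlapped. The first sum was mostly Krt8 and Krt18 (means of 1185 and 2573 FPKM over all libraries) and the second mostly Dab2 (171). Gata4 and Sox7, 2 of the 7 primitive endoderm genes, were above without overlap, and 0 of the 8 trophectoderm genes were. The median relative to all genes was -0.16 for the trophectoderm list and -0.10 for the primitive endoderm list. The sum of 17 proliferation genes lay between 742 and 861 in oEV-EMT and between 568 and 705 in oEV-ctrl. Its highest genes were Aurka (means of 214 FPKM in oEV-EMT and 132 in oEV-ctrl) and Ccnb1 (168 and 118). Of the 16 tested proliferation genes, 2 were above without overlap, beside the 18.1% of all tested genes. Mki67, Top2a and Cdk1 lay below the median of all genes, by log2 values of -0.35, -0.29 and -0.52. The sum of 11 oocyte and cleavage-stage genes was 4.16 to 7.13 against 2.42 to 3.44, with Zscan4d at 0. Of these genes, 9 were below 1 FPKM in every library. The sum thus rested almost only on Zp2, which overlapped between groups, and Zp3. All 8 markers of cumulus and oviduct cells were below 1 FPKM in every library, with Ptx3, Amh, Foxj1 and Acta2 at 0. The 6 blood cell markers summed to 1.54 to 4.41 FPKM in oEV-EMT and 1.01 to 2.79 in oEV-ctrl, with Ptprc, Hbb-bs and Hbb-bt at 0. The epiblast, proliferation and oocyte sums, of values as deposited, did not overlap between groups. In the same values this was so for the tested repair genes Chek2, Xrcc5, Rad18, Pms2, Parp2 and Ercc1. The part of what these sums measure in the differences of the repair genes was not tested.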

How the data were processed

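RNA from 6 pools of 10 blastocysts was selected with oligo(dT) beads and sequenced. The authors assembled transcripts with StringTie (mm10, per the submitters' processing notes; the aligner is not given in the sources used here) and deposited 1 FPKM value per gene and library, unscaled between libraries. Their methods name TPM, but the sums exceed 1000000 and differ. The authors' count model could not be applied to FPKM. Genes reaching 1 FPKM in 3 or more libraries were fitted as log2(FPKM + 1) with limma 3.58.1 (R 4.3.3; trended, robust variance), with Benjamini-Hochberg adjustment over all 11924 genes. Fold changes of low genes are understated on this scale.

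The repair genes and all lists were chosen with earlier results of these data known. Full values were given for genes at an unadjusted p of at most 0.05, without overlap between groups, or highest or lowest in their pathway. From the wider list, up to 3 genes per direction farthest from the median without overlap were named, with the partners in the ratios. Other genes were added as context, and a few results under these rules are not reported here. Coordinates, overlaps and lengths came from GENCODE M21 (55141 of 55487 Ensembl identifiers matched), promoters from RefSeq. Shared sequence was counted as identical stretches of 50 bases in annotated transcripts on either strand. Ratios were tested by exact permutation, two-sided (scipy 1.17.1). The fit was tested on simulated data. Alternatives covered scaling, filter, pseudocount, variance model, library weights, dropping each library and a replicate block. Plots were made in matplotlib 3.10.9.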

Additional observations from a re-analysis of the deposited data

How the results depend on the processing

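No gene of the whole table passed both thresholds in the values as deposited, and the count was 104 with array weights, 21 with the replicate block, 22 at an adjusted p of at most 0.1, 276 at an unadjusted p of at most 0.05, and 0 to 17 on leaving out 1 library (17 without oEV-ctrl 3). None of the 34 repair genes was among those called with array weights, the block or a library left out. The 4 repair genes higher at an unadjusted p became 2 under median-of-ratios scaling or centring on the median deviation (chosen after seeing the data), 1 under upper quartile scaling, and 1 to 6 without 1 library. The 0 lower became 1 in each of these scalings (Parp1) and with array weights (Atr), and 0 to 1 without 1 library. The 4 higher became 6 with sums scaled to 1000000 and 6 with array weights, where only Chek2 and Parp2 were shared. Of all tested genes, 1527 were higher and 304 lower in the main fit. These were 758 and 768 under median-of-ratios scaling, 779 and 768 on centring, and 536 and 972 under upper quartile scaling. They were 2191 and 598 with array weights, 1850 and 182 with scaled sums, and 940 to 1662 and 202 to 577 without 1 library. The median of the repair genes relative to all tested genes, 0.12, was 0.27 without a filter on low values, where 31842 genes were fitted, and 0.04 to 0.12 without 1 library. Chek2 was at an unadjusted p of at most 0.05 under all 19 alternatives. The directions of Chek2, Xrcc5, Rad18, Pms2, Parp2, Ung and Ercc1 were the same in all of them. These genes were picked by their unadjusted p or lack of overlap in the same data, so a constant direction adds little. Among genes not so picked, Chek1, Brca2, Mre11a, Xrcc6 and Fancd2 were also higher in all 19, and Atr, Topbp1 and Parp1 were higher in 0. Palb2, Fanci, Xrcc1, Ogg1 and Mutyh, fitted in 18 alternatives, were higher in all 18, and Xpc in 0 of 18. All alternatives draw on the same 6 libraries, and the share of all tested genes with a constant direction was not computed. Deviations of same-numbered libraries correlated at 0.119, -0.044 and 0.039. With no value known for paired libraries to compare them with, these cannot decide whether the replicate numbers pair the libraries. With the block, 3 repair genes were higher (Chek2, Pms2 and Ung). FPKM keep no read totals, so depth could only be estimated.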
